A study of Mus musculus with 2 samples.

Results

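The genes described here are 32 genes of programs that cells switch on within minutes of a stimulus or of heat and protein damage. Some of them, such as Jund and Hspa8, are also kept on at rest. All 32 were taken by symbol from the 31053 genes of the count matrices, with no threshold on a measured value but with earlier results of these data known. They fall into 8 factors of the AP-1 family (Fos, Fosb, Fosl2, Jun, Junb, Jund, Atf3 and Maff), 9 other immediate-early genes (Egr1, Egr2, Nr4a1, Klf2, Klf4, Klf6, Ier2, Ier5 and Rhob), 8 feedback genes that damp the response (Dusp1, Dusp2, Dusp6, Zfp36, Zfp36l1, Ier3, Btg2 and Gadd45b) and 7 heat shock genes (Hspa1a, Hspa1b, Hsp90aa1, Hspa8, Hsph1, Dnajb1 and Dnaja1). The first 3 groups, 25 genes, are called the immediate-early members below. All 32 had counts in both libraries, and 29 of 32 in the PBS library and 32 of 32 in the MSC-sEV library reached at least 20 unique molecular identifiers (UMIs, which count single captured transcripts).

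Immediate-early genes need no new protein to be transcribed. Kinase cascades activate serum response factor and CREB that already sit at their promoters, AP-1 and Egr factors then carry the signal to later genes, and phosphatases of the Dusp family and the mRNA decay factors of the Zfp36 family end it. Heat shock genes answer to a different factor, Hsf1, which is freed when unfolded protein occupies the chaperones. Both programs are known to be induced in living tissue by injury and also by warm enzymatic dissociation of tissue for single-cell work. Both libraries here were digested in the same way, so what was present in the eye and what arose in the dish cannot be told apart.

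The retinas came from C57BL/6 mice of 6 to 8 weeks, all with an injured optic nerve, at a time the labels give as 2 weeks. One group received PBS and the other MSC-sEV, the field's usual abbreviation for small extracellular vesicles of mesenchymal stem or stromal cells. Retinas of 6 mice per group were pooled, digested with papain (15 U/mL) and DNase I (0.1 mg/mL) at 34 °C for 15 min, enriched on CD45 magnetic beads (CD45 is carried by leukocytes) and run as 1 droplet-based 3′ single-cell library per group. With 1 pooled library per group there is no replicate, so no difference between the treatments has a test. Unless said otherwise, intervals below are 95% intervals that cover counting error only.

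After filtering, 1347 PBS and 2323 MSC-sEV barcodes remained, with median depths of 2601 and 2920 UMIs and no shared barcode. Mitochondrial shares had medians of 5.07% and 2.60%. The label calls these retinal immune cells, but rod-like cells made up 660 of 1347 and 1127 of 2323 barcodes. Microglia-like cells numbered 110 in the PBS and 360 in the MSC-sEV library. Monocyte or macrophage-like (200), T cell or innate lymphoid-like (117), migratory dendritic cell-like (50) and eosinophil-like cells (156) were named in the MSC-sEV library only. The last cluster carried Ccr3, Siglecf and Alox15 but also the neutrophil genes Retnlg and Mmp9, and the T cell or innate lymphoid-like one also cell division genes. Müller glia-like (82 and 53), cone-like (76 and 51), bipolar cell-like (42 and 49) and endothelial cell-like cells (21 and 10) were present in both, and 356 and 150 barcodes stayed unnamed. The 32 genes took no part in the clustering. Over all cells, 20 of 25 immediate-early members were at least 2-fold higher in MSC-sEV (20.5% of all genes were) and 1 of 7 heat shock members lower (10.7%), but the libraries differ in their classes, so comparisons below are within classes.

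The 250 bases upstream of the RefSeq start (GRCm38.p6) were read for 28 of the 32 members (not for Egr1, Ier2, Hsp90aa1 and Hspa8) because the groups are known for different driving factors. The heat shock element pair, written GAANNTTC or TTCNNGAA, was found in 7 members, among them Hspa1a, Hspa1b, Hsph1 and Dnaja1 but also Fosl2, Jun and Egr2, and in 12.8% of all 32851 windows of this length. The full cAMP response element, TGACGTCA, was found in Maff, Dusp1 and Btg2 and in 1.55% of windows. The serum response factor site known as the CArG box was found in Egr2 and Zfp36 and in 1.47% of windows. Each motif was searched on both strands, and each window shown holds only 1 of these motifs. Capitals mark the match, and all sequences run 5′ to 3′ on the gene's strand, which is the minus strand for all 5. Hspa1a and Hspa1b are shown because their windows share 247 of 250 bases, Dusp1 and Btg2 because they carry the same element but were seen at different levels in photoreceptors, and Zfp36 for the serum response site.
Hspa1a, chr17:34972157-34972406, match starting 104 bases before the start: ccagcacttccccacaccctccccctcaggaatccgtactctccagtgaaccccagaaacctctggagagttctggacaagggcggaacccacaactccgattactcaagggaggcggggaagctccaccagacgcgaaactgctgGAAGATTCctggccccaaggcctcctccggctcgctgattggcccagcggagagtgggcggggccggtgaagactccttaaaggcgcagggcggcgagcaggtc
Hspa1b, chr17:34959239-34959488, match starting 104 bases before the start: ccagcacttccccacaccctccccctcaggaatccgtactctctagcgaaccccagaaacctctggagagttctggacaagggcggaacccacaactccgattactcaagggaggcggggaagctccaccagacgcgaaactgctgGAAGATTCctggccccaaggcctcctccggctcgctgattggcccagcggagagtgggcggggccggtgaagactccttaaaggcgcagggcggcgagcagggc
Dusp1, chr17:26508473-26508722, match starting 143 bases before the start: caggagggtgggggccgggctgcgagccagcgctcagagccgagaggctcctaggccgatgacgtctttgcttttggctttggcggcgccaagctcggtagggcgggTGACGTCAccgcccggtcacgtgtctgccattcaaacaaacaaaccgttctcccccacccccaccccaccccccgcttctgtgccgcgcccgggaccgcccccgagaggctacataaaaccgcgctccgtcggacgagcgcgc
Btg2, chr1:134079156-134079405, match starting 166 bases before the start: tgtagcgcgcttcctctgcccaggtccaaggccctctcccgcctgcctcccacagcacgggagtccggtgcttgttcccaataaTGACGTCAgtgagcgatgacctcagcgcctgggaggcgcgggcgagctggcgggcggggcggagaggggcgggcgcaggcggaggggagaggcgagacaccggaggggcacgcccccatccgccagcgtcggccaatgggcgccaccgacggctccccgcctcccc
Zfp36, chr7:28379229-28379478, match starting 58 bases before the start: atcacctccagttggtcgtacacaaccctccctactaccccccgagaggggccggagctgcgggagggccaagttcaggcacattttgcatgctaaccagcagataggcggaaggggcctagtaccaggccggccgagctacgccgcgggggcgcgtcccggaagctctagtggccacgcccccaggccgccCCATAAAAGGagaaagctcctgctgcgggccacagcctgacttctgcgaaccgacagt

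Summed over the 25 genes, the immediate-early members were highest in leukocytes. Among the heat shock members the Hspa1 pair, Hsp90aa1 and Hsph1 were highest in photoreceptors of both libraries, and the other 3 did not share that order. Levels are UMIs summed over the cells of a class, divided by all UMIs of that class and scaled to CPM, with exact Poisson intervals. Within the MSC-sEV library the 25 immediate-early members summed to 20667 CPM in eosinophil-like and 14788 CPM in microglia-like cells. Monocyte or macrophage-like cells had 9426 CPM, T cell or innate lymphoid-like cells 8917 CPM and migratory dendritic cell-like cells 6228 CPM. The T cell or innate lymphoid-like class also held microglia markers at 5196 CPM, 43.0% of their level in microglia-like cluster 6. At a clustering resolution of 2.0, where a microglia-like cluster of 63 cells led by cell division genes stood apart, this class had 62 cells, microglia markers at 20.6% of cluster 6 and 7913 CPM of the immediate-early members. Neurons stood lowest, at 1312 CPM (1275 to 1350.0) in rod-like, 1141 CPM (1051 to 1236) in bipolar cell-like and 1069.9 CPM (1004 to 1139) in cone-like cells. Müller glia-like cells lay between these groups at 4786 CPM (4660.0 to 4915), and the 10 endothelial cell-like cells at 8231 CPM (7728 to 8758). The PBS library had the same ends of the order among the classes it holds, with microglia-like cells at 16794 CPM and cone-like cells at 980.0 CPM.

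The summed level of the 7 heat shock members was higher in photoreceptors and bipolar cells than in microglia-like cells, and much of it was Hsp90aa1. Rod-like cells held 4531 CPM in the PBS and 4388 CPM in the MSC-sEV library, cone-like cells 4889 and 4492 CPM, and bipolar cell-like cells 4706 and 3725 CPM. Microglia-like cells held 1679.8 and 1766 CPM, and eosinophil-like cells were lowest with 1473 CPM. Hsp90aa1 supplied 63.9% and 78.0% of the heat shock UMIs of rod-like cells. Without it the order in the MSC-sEV library turned: the other 6 summed to 965 CPM (934 to 998) in rod-like, 1294 CPM in microglia-like, 1687 CPM in monocyte or macrophage-like, 1711 CPM in T cell or innate lymphoid-like and 2165 CPM (2045 to 2289) in migratory dendritic cell-like cells. In the PBS library rod-like cells kept the higher value, 1636 CPM against 1121 CPM in microglia-like cells. Of the immediate-early members with at least 20 UMIs over microglia-like and rod-like cells, 19 of 21 in the PBS and 23 of 24 in the MSC-sEV library were higher in microglia-like cells with an interval of the ratio that excluded 1. Of all genes with that many UMIs 24.3% and 30.9% were. The exception in the MSC-sEV library was Gadd45b, which was lower. Of the 7 heat shock members, 6 in the PBS and 4 in the MSC-sEV library were lower in microglia-like cells, Hspa1a, Hspa1b, Hsp90aa1 and Hsph1 in both, beside 31.6% and 48.2% of all genes. Hspa8 took opposite sides, lower in microglia-like than in rod-like cells in PBS (0.768-fold, 0.702 to 0.838) and higher in MSC-sEV (1.91-fold, 1.81 to 2.02).

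**Figure D1:**
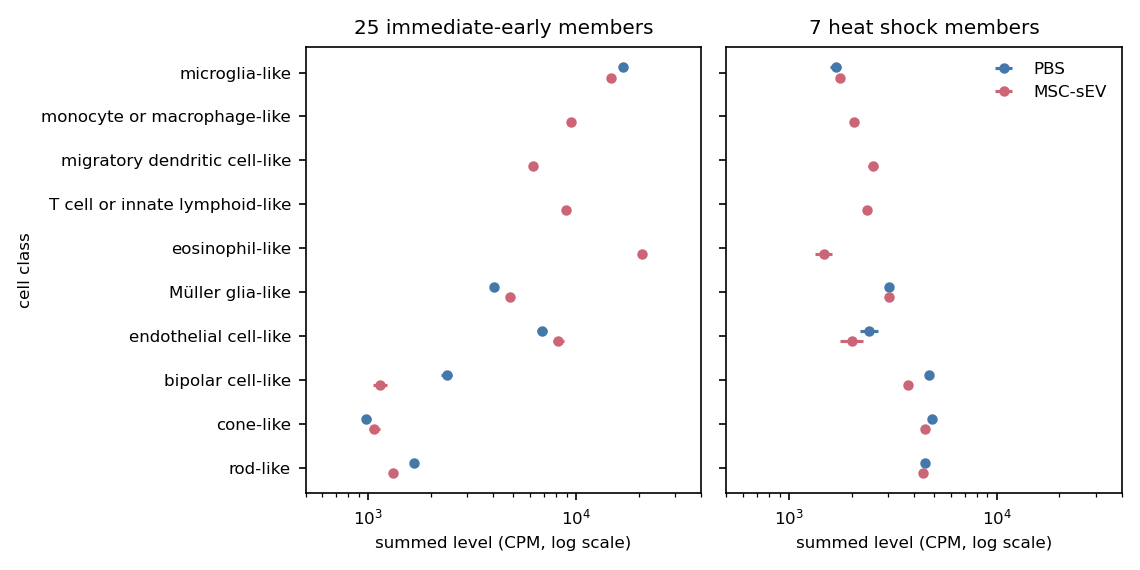
Summed level (CPM, log scale) of the 25 immediate-early members (left) and the 7 heat shock members (right) in each cell class, with 1 point per library (blue PBS, red MSC-sEV) and bars for 95% counting intervals; a missing point means that the class was not named in that library or had no cell there. Immediate-early levels run from near 1000 CPM in cone-like cells to 20667 CPM in eosinophil-like cells, while the heat shock levels of rod-like and cone-like cells lie to the right of those of all leukocyte classes.

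Per cell the microglia-like class was spread out. After each cell was thinned to 1000 UMIs, the median microglia-like cell held 5 immediate-early UMIs in the PBS and 11 in the MSC-sEV library, and 17 of 83 and 42 of 312 cells held none. The class holds a pair of clusters, numbered 5 and 6, and the median cell of cluster 6 held 20 in the PBS and 18 in the MSC-sEV library. The median of cluster 5 was 1 in both, and that of eosinophil-like cells 22. Medians were 9.5 in monocyte or macrophage-like cells and 6 in T cell or innate lymphoid-like and migratory dendritic cell-like cells. The median rod-like cell held 1 immediate-early UMI in either library against 4 heat shock UMIs. None of 40 PBS cells of cluster 6 and 1 of 184 MSC-sEV cells was without an immediate-early UMI at this depth, whereas 234 of 590 PBS and 323 of 994 MSC-sEV rod-like cells were.

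**Figure D2:**
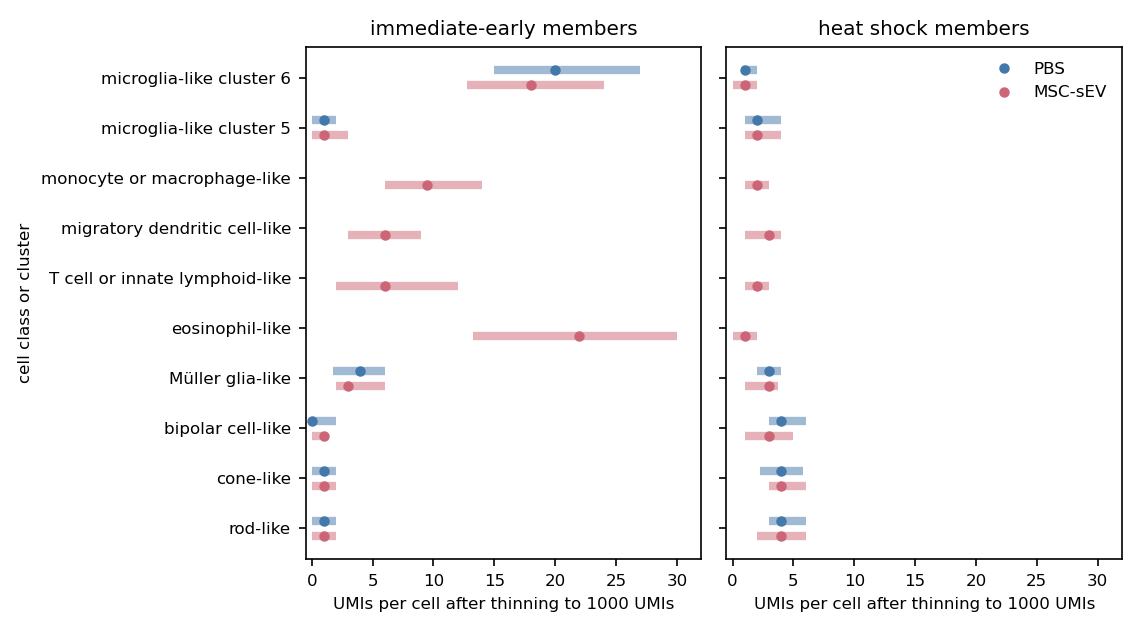
UMIs per cell of the immediate-early (left) and heat shock members (right) after each cell was thinned to 1000 UMIs; points are medians over cells and bars run from the lower to the upper quartile, blue for PBS and red for MSC-sEV. Microglia-like cluster 6 and eosinophil-like cells have quartile ranges well to the right of those of all neurons for immediate-early members, with medians of 20, 18 and 22 against 0 or 1, while for heat shock members rod-like and cone-like cells of both libraries and bipolar cell-like cells of the PBS library have medians of 4.

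The microglia-like clusters differed in content. Cluster 6 (40 PBS and 184 MSC-sEV cells) had median depths of 9875 and 14076.5 UMIs, was named from all 12 microglia markers and held 21658 and 17089.7 CPM of the immediate-early members. Cluster 5 (70 and 176 cells) had median depths of 1291.5 and 2291 UMIs, was named from markers that stood out in it, P2ry12, Gpr34, Fcrls and Csf1r among them, and held 1326 and 2824 CPM. All 12 rod markers were detected in both clusters, and together they reached 36672 and 22887.5 CPM in cluster 5 against 4698 and 2265 CPM in cluster 6. The part that rod RNA plays in the low values of cluster 5 was not tested. Because the share of cluster 6 differed between the libraries, ratios between treatments are given for the whole class and for cluster 6. Microglia markers were themselves lower in MSC-sEV. Within cluster 6 the 12 markers summed to 12078 CPM there, against 21642 CPM for PBS. Over the whole class the sums were 11082 and 18183 CPM in that order. The part that this difference plays in the ratios of Jun and the other members was not tested.

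AP-1 factors work as pairs, a Fos or Atf partner with a Jun partner, and the partners behaved unequally between the libraries. In microglia-like cells Fos stood at 1153 CPM (1072 to 1237) in the PBS and 1149 CPM (1113 to 1186) in the MSC-sEV library, a ratio of 0.997 (0.922 to 1.08). Jun, its best known partner (ENSMUSG00000052684, chr4:95049034-95052222, minus strand, GRCm38), stood at 3060.4 CPM (2929 to 3197) and 1491 CPM (1450.0 to 1532). The libraries thus had equal Fos within counting error, while Jun was 2.05-fold lower (1.95 to 2.16) in MSC-sEV for the class and 2.27-fold lower (2.16 to 2.40) in cluster 6. Jund, the Jun member that resting cells keep, went with it at 1372 and 669.6 CPM, 2.05-fold lower (1.89 to 2.21) for the class. Junb had 2399 and 1794 CPM and was 1.34-fold lower (1.26 to 1.41).

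Members on the other side were fewer in transcripts. Atf3, a stress-induced factor that mostly represses, had 51 UMIs in the PBS and 667 in the MSC-sEV library and was 2.55-fold higher (1.92 to 3.46). Fosl2 had 2 and 58 UMIs, a ratio of 5.65 (1.50 to 47.8), so its size is loosely bounded. Fosb stood at 282 and 361 CPM, 1.28-fold higher (1.10 to 1.50). Maff, a small Maf protein that lacks a transactivation domain, had 0 and 17 UMIs and falls under the 20 UMIs set for a ratio. Of the 7 AP-1 factors with at least 20 UMIs, 2 were at least 2-fold higher and 2 at least 2-fold lower in MSC-sEV, and their median log2 ratio was -0.00. Over all 9882 genes with that many UMIs in these cells, 10.5% were at least 2-fold higher and 7.03% at least 2-fold lower, with a median of 0.02.

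Among the other immediate-early genes the abundant members differed little over the class. Egr1, a zinc finger factor at the head of the growth response, had 1190.3 and 1265 CPM with a ratio of 1.06 (0.985 to 1.15). Klf2, a Krüppel-like factor that keeps myeloid and endothelial cells quiescent, had 668 and 753 CPM (1.13, 1.02 to 1.25). Ier2 (ratio 1.16, 1.05 to 1.29), Klf4 (1.27, 1.05 to 1.55) and Klf6 (1.01, 0.881 to 1.17) also stayed within 2-fold. Egr2, a relative of Egr1 with roles in myeloid and lymphoid differentiation, was 2.54-fold higher (1.89 to 3.48) on 48 and 625 UMIs. Nr4a1, an orphan nuclear receptor induced by antigen and growth signals, had 2 UMIs in the PBS and 72 in the MSC-sEV library, a ratio of 7.01 (1.87 to 59.0). Ier5 was 2.01-fold lower (1.81 to 2.23), and Rhob, a short-lived GTPase of endosomes, 1.31-fold lower (1.19 to 1.43). The group had 2 of 9 members at least 2-fold higher and 1 lower, beside 10.5% and 7.03% of all genes, with a median log2 ratio of 0.17.

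Of the feedback genes 6 of 8 had a ratio above 1, beside 51.1% of all genes. Ier3, a short-lived regulator of cell survival under NF-kB (ENSMUSG00000003541, chr17:35821684-35822923, plus strand), had 131 CPM (105 to 162) in the PBS and 400.0 CPM (379 to 422) in the MSC-sEV library, 3.04-fold higher (2.45 to 3.83) for the class and 3.22-fold higher (2.53 to 4.16) in cluster 6. Zfp36, which encodes tristetraprolin, stood at 986 and 1412 CPM (1.43-fold higher, 1.32 to 1.56). Its relative Zfp36l1 stood at 654 and 967 CPM (1.48-fold higher, 1.34 to 1.64). Both decay factors were thus modestly higher, as was Dusp1, the phosphatase that turns off p38 and JNK, with 429 and 578 CPM (1.35-fold higher, 1.19 to 1.53). Dusp6, which is specific for ERK, went the other way at 308 and 249 CPM (1.24-fold lower, 1.06 to 1.45), and so did the antiproliferative gene Btg2 at 1139 and 811 CPM (1.40-fold lower, 1.29 to 1.52). Gadd45b, a stress kinase regulator, had 11 and 137 UMIs and was 2.43-fold higher (1.31 to 4.98) for the class, and 1.92-fold higher (0.973 to 4.33) in cluster 6. Dusp2 was counted 3 and 27 times. In this group 2 of 8 members were at least 2-fold higher and none lower, beside 10.5% and 7.03% of all genes. The median log2 ratio was 0.54, and single members ran from -0.49 (Btg2) to 1.61 (Ier3).

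Cluster 6 taken alone kept these directions for the members named above as at least 2-fold apart. Of the other immediate-early genes 5 of 9 had a ratio above 1 in cluster 6, against 7 of 9 over the class. Over all 25 immediate-early members, 5 of the 24 with enough UMIs were at least 2-fold higher there and 3 lower, beside 10.7% and 6.92% of all genes tested. The summed level was 1.27-fold lower (1.24 to 1.29) in MSC-sEV. Cluster 5, on 210 PBS and 1548 MSC-sEV UMIs, had 13 of 20 at least 2-fold higher and none lower, beside 18.1% and 5.12% of all genes, and its sum was 2.13-fold higher (1.84 to 2.47). Jun and Ier5 were not lower there, with ratios of 1.03 (0.642 to 1.71) and 1.41 (0.649 to 3.49). The pair of clusters thus differed in the direction of the sum, a difference that was not tested.

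**Figure D3:**
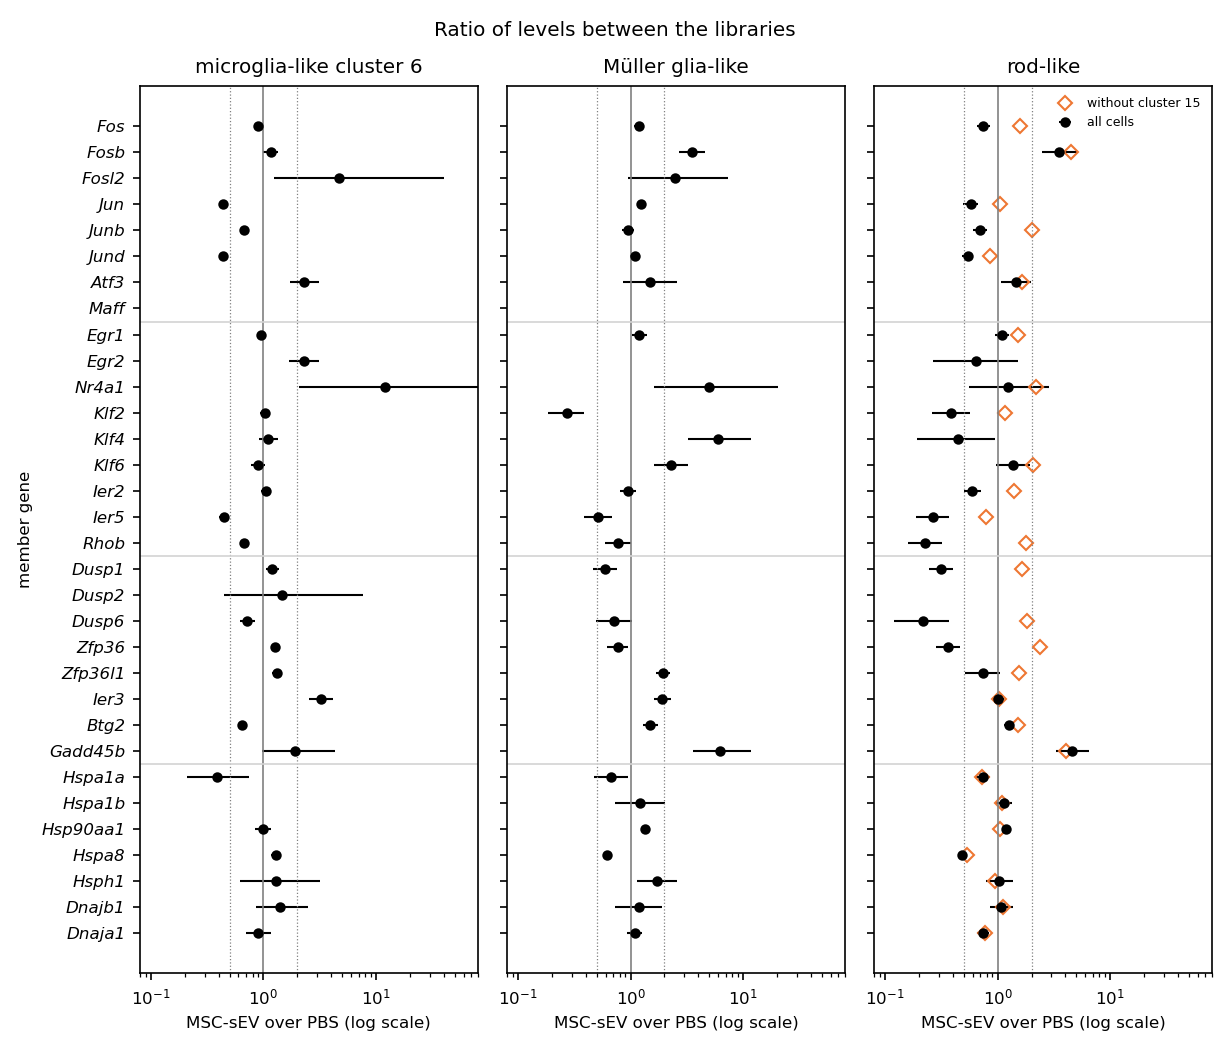
Ratio of each member's level in MSC-sEV over PBS (log scale) in microglia-like cluster 6, Müller glia-like and rod-like cells, with 95% counting intervals; genes with fewer than 20 UMIs are left blank, the solid line marks equal levels, dotted lines a 2-fold difference, and open orange diamonds the rod-like ratios without the PBS-only cluster 15. In cluster 6 Jun, Jund and Ier5 lie left of the lower dotted line and Atf3, Egr2 and Ier3 right of the upper one; in rod-like cells the diamonds of Rhob, Dusp1, Dusp6 and Zfp36 lie on the other side of 1 from the filled points.

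Over the microglia-like class Jun was seen more often in cells with Fos, but within cluster 6 the gap was smaller in MSC-sEV and turned in PBS. Among thinned microglia-like cells in MSC-sEV, Jun was seen in 99 of 141 cells with Fos (70.2%, exact binomial interval 61.9 to 77.6) and in 36 of 171 without (21.1%, 15.2 to 27.9). In the PBS library it was 21 of 31 (67.7%, 48.6 to 83.3) against 19 of 52 (36.5%, 23.6 to 51.0). Much of this gap lay between the clusters: in cluster 6 the shares were 73.6% against 54.2% in MSC-sEV, a gap of 19.4 points (-2.31 to 40.3), and 87.5% against 93.8% in PBS, where the direction turned. Before thinning, a Fos UMI was seen in 41.8% of microglia-like cells in PBS and 58.9% in MSC-sEV, and in 22.1% and 16.2% of rod-like cells. Depth was alike in PBS, with medians of 3000 and 2761 UMIs, and apart in MSC-sEV, with 5275 and 2557 UMIs. Transcripts of Hspa1a or Hspa1b were seen in 0 of 141 MSC-sEV and 0 of 31 PBS thinned cells with Fos, where the intervals still allow 2.58% and 11.2%. Over the class the pair stood at only 22.1 and 40.8 CPM. Few thinned cells could thus show it, with or without Fos.

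Other genes of the pathway were read from lists of related genes in microglia-like cells, where 10.5% of all genes were at least 2-fold higher and 7.03% lower in MSC-sEV. Of 32 further immediate-early genes in the files, 23 had enough UMIs, 11 were at least 2-fold higher and 3 lower in MSC-sEV, with a median log2 ratio of 0.92. Pim1, a kinase gene induced by cytokines through Stat factors, had the highest ratio, with 16.6 and 461 CPM (27.7-fold, 15.5 to 55.7). Egr3 (7.44-fold on 5 and 191 UMIs) and Bhlhe40 (7.36-fold) followed. Tob1, an antiproliferative relative of Btg2, and Cebpd, a C/EBP factor, were among the lower ones, at ratios of 0.320 and 0.475. Of 19 further feedback genes with enough UMIs 3 were at least 2-fold higher, led by Dusp5 (8.57-fold on 3 and 132 UMIs), and 3 lower, among them the receptor kinase inhibitors Spry1 and Spry2 (ratios 0.146 and 0.195), with a median of -0.36. Of 18 upstream regulators 2 were higher and 1 lower, near the shares of all genes, with a median of 0.24. The lower one was Hsf1 (14 and 32 UMIs, ratio 0.445).

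Eosinophil-like cells, seen in the MSC-sEV library alone, had the highest level of 13 of the 32 members among the 9 classes of that library with at least 20 cells, beside 11.2% of all genes. For Fosb, Nr4a1 and Dnajb1 among the 13 the interval of the second class overlapped. Junb stood at 3945 CPM (3725 to 4175) there and Dusp1 at 3248 CPM (3049 to 3457), against 1794 and 578 CPM in microglia-like cells. Egr1 stood at 2433 and Ier2 at 1812 CPM, against 1265 and 759 CPM. Jun, by contrast, was lower in eosinophil-like cells (506 CPM, 429.5 to 593) than in microglia-like cells (1491 CPM), as were Klf4 (16.4 against 239.9 CPM) and Rhob (102 against 674 CPM). These cells had a median depth of 1279 UMIs, and all 106 that could be thinned to 1000 UMIs held an immediate-early UMI. Dusp1 and Btg2, whose promoter windows above share the cAMP response element, were both detected in eosinophil-like cells (3248 and 1170.4 CPM). In MSC-sEV rod-like cells Dusp1 was at 24.4 CPM, below its level in each leukocyte class, while Btg2, at 244 CPM, exceeded its 194 CPM in migratory dendritic cell-like cells.

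Migratory dendritic cell-like cells were highest for 5 members, and monocyte or macrophage-like and T cell or innate lymphoid-like cells for 1 each, Maff and Dusp2, whose intervals overlap the next class. Of all genes, 7.57%, 5.15% and 9.54% were highest in these 3 classes. Migratory dendritic cell-like cells had the highest Gadd45b of these classes, 475 CPM (420.2 to 536) against 249.9 CPM in eosinophil-like cells, and Zfp36l1 stood at 1239 CPM (1149 to 1334). Their Fos (163 CPM) and Egr1 (131 CPM) were the lowest of the leukocyte classes. Monocyte or macrophage-like cells had Fos at 1083 CPM, close to the 1149 CPM of microglia-like cells, with Jun at 536 and Klf2 at 144 CPM, both lower than in microglia-like cells. Dusp2, a phosphatase induced in activated lymphocytes, was highest in T cell or innate lymphoid-like cells at 75.5 CPM (63.5 to 89.2), next to 72.4 CPM (52.0 to 98.3) in migratory dendritic cell-like cells, values that do not differ beyond their intervals, and it stood at 149.6 CPM in the 62 cells of this class at resolution 2.0. In endothelial cell-like cells Klf2, which shear stress induces in vessels, reached 1054 CPM (908 to 1217) and 1608 CPM (1390.5 to 1851), and Klf4 357 CPM (274 to 457) and 652 CPM (516 to 812), on 21 and 10 cells.

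**Figure D4:**
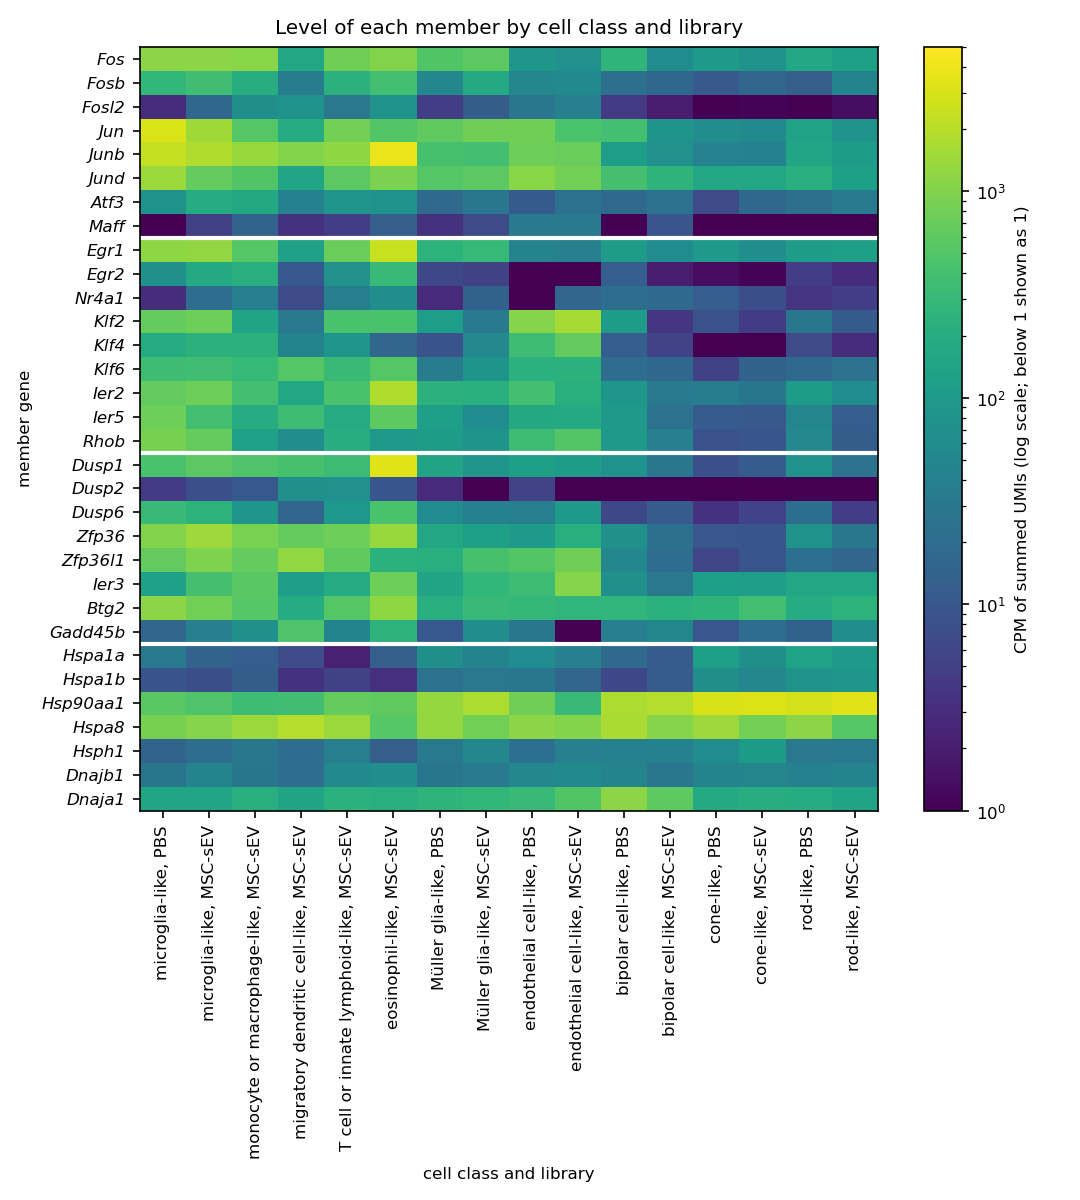
Level of each of the 32 members (rows, grouped from top to bottom as AP-1 factors, other immediate-early genes, feedback genes and heat shock genes, with white lines between groups) in each cell class and library (columns), as CPM on a log colour scale. The upper 3 groups are bright on the left, in microglia-like to eosinophil-like cells, and dark on the right, in cone-like and rod-like cells, while Hspa1a, Hspa1b and Hsp90aa1 are brightest in the cone-like and rod-like columns; colours compare classes within a row and not genes with each other, since their lengths differ.

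Müller glia, the radial glia of the retina, carried Fos and Jun at levels between neurons and leukocytes. Fos stood at 498 CPM (462 to 536) in the PBS and 592 CPM (548 to 638) in the MSC-sEV library and Jun at 629 CPM (589 to 672) and 783 CPM (732 to 836), both within 2-fold. Among 22 immediate-early members with enough UMIs, 6 were at least 2-fold higher in MSC-sEV and 1 lower, beside 10.1% and 4.82% of all 10051 genes, whose median log2 ratio was 0.14 (0.01 after TMM scaling). Fosb had 74 and 207 UMIs (3.49-fold higher, 2.67 to 4.62), Gadd45b 15 and 75 (6.25-fold higher, 3.56 to 11.7) and Klf4 13 and 62 (5.96-fold higher, 3.24 to 11.8). Klf6 was 2.28-fold higher (1.61 to 3.26), while Nr4a1 (4 and 16 UMIs) and Fosl2 (7 and 14 UMIs) rest on few counts. Klf2 was the one lower, at 119.9 and 32.4 CPM (3.70-fold lower, 2.58 to 5.43).

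All 12 microglia markers were detected in the Müller glia-like cells of both libraries, at 3009 CPM for PBS against 2409 CPM for MSC-sEV, and all 12 rod markers at 37670 and 26427 CPM. Their part in these ratios was not tested. Without the 1 cell of each library that held the most member UMIs, Nr4a1 stood at a ratio of 1.54, Dusp1 went from 0.591 (0.459 to 0.756) to 0.447, and Klf4, Fosb and Gadd45b stayed at 4.46, 3.01 and 4.94. The counts were then 5 of 21 higher and 2 lower, beside 9.23% and 4.43% of all genes.

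In rod-like cells the comparison between treatments turned on 1 cluster. Over all rod-like cells 2 of 22 immediate-early members were at least 2-fold higher in MSC-sEV and 7 lower, beside 15.9% and 5.22% of all 10319 genes tested, and the summed level was 1.27-fold lower (1.22 to 1.32). The lower ones were Klf2, Klf4, Ier5, Rhob, Dusp1, Dusp6 and Zfp36, and the higher ones Fosb and Gadd45b. Median log2 ratios were -0.47 for AP-1 factors, -0.75 for other immediate-early genes and -0.45 for feedback genes, where the median of all genes was 0.28 (0.05 after TMM scaling). Cluster 15 held 46 PBS cells and no MSC-sEV cell, and it carried 27.4% of the UMIs of PBS rod-like cells but 211 of their 245 Dusp1, 158 of 174 Rhob, 63 of 69 Dusp6 and 217 of 244 Zfp36 UMIs. All 12 microglia markers were detected in cluster 15 and summed to 2317 CPM, against 70.5 to 157 CPM in the other rod-like clusters of either library. The part that these transcripts play in its members was not tested.

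Without cluster 15 the direction turned. The summed immediate-early level was 926 CPM in the PBS and 1312 CPM in the MSC-sEV library, 1.42-fold higher (1.35 to 1.49). Of 20 members with enough UMIs, 6 were then at least 2-fold higher (Fosb, Junb, Nr4a1, Klf6, Zfp36 and Gadd45b) and none lower, beside 14.3% and 1.24% of all genes. Zfp36 went from 2.74-fold lower to 2.39-fold higher, and Dusp1 from 3.16-fold lower to 1.66-fold higher. Fosb and Gadd45b were 3.52-fold higher (2.50 to 5.07) and 4.56-fold higher (3.30 to 6.43) over all rod-like cells and 4.48-fold and 4.03-fold higher without it.

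Even then the libraries filled different rod-like clusters, 362 PBS and 114 MSC-sEV cells in cluster 1 but 71 and 533 in cluster 0. Within clusters 0, 1, 2 and 4 the ratios of the summed level were 0.889 (0.794 to 0.998), 0.981 (0.860 to 1.12), 0.756 (0.602 to 0.959) and 1.02 (0.931 to 1.12). Cluster 0 had 2158 and 1918 CPM against 712 and 699 CPM in cluster 1. The ratios within clusters thus ran from 0.756 to 1.02, while over these 4 clusters together the ratio was 1.42. At least 2-fold higher and lower were 3 and 0 of 18 members in cluster 0 (12.9% and 4.57% of all genes), 3 and 1 of 14 in cluster 1 (5.61% and 5.73%), 1 and 1 of 10 in cluster 2 (14.2% and 4.72%) and 2 and 1 of 16 in cluster 4 (5.52% and 1.82%). Over all rod-like cells, cluster 15 included, Egr1 was seen more often with Fos than without it. In thinned PBS cells it was seen in 17 of 61 against 29 of 529 (27.9% and 5.48%). In thinned MSC-sEV cells it was 23 of 92 against 73 of 902 (25% and 8.09%). Cluster 15 held 350 of the 532 Fos and 173 of the 357 Egr1 UMIs of PBS rod-like cells. The part that differences between clusters play in this gap was not tested.

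**Figure D5:**
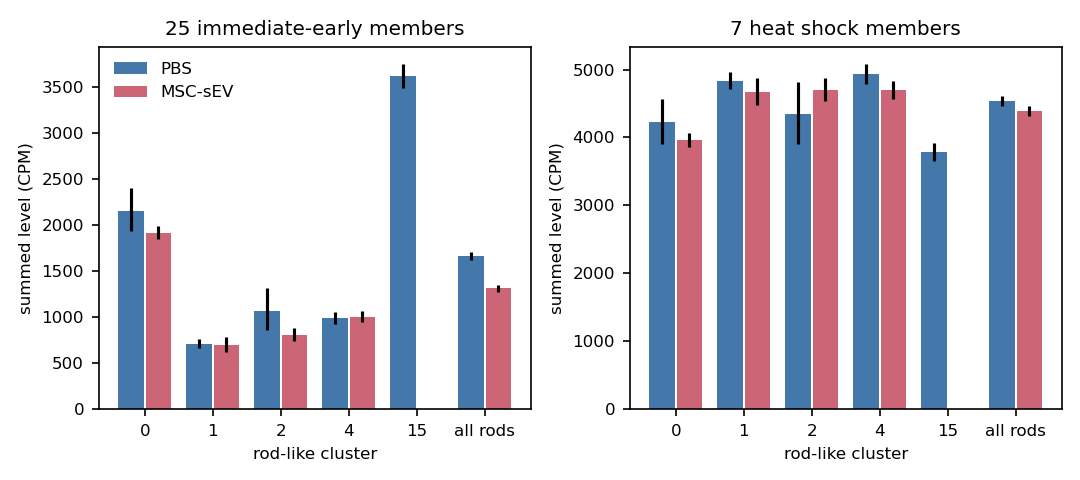
Summed level (CPM) of the 25 immediate-early members (left) and the 7 heat shock members (right) in the rod-like clusters 0, 1, 2, 4 and 15 and in all rod-like cells, blue for PBS and red for MSC-sEV, with 95% counting intervals. Cluster 15, which has no MSC-sEV cell, holds the highest immediate-early bar, 3622 CPM, while its heat shock bar is the lowest of the PBS library.

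Cone-like and bipolar cell-like cells held few immediate-early UMIs. In cone-like cells 3 of 17 members with enough UMIs (Atf3, Klf6 and Gadd45b) were at least 2-fold higher in MSC-sEV and none lower, beside 11.0% and 2.19% of all genes, each on at most 19 UMIs per library. In bipolar cell-like cells none of 18 was higher and 10 were lower, beside 9.09% and 3.15%. Microglia markers moved with this difference: 12 of 12 were detected in the PBS cells, at 694 CPM on 327 UMIs, and 7 of 12 in the MSC-sEV cells, at 99.5 CPM on 52 UMIs. One PBS cell of 28868 UMIs, which held 58 microglia marker UMIs against 9 of bipolar markers, supplied 79 of the 183 Jun, 69 of the 124 Fos and 36 of the 52 Klf2 UMIs. Without the top cell of each library 4 of 14 stayed at least 2-fold lower (Jun, Ier5, Rhob and Dusp1), beside 3.26% of all genes. Microglia markers without those cells summed to 608 CPM (PBS) and 107 CPM (MSC-sEV), and their part in these ratios was not tested. Jun and Jund then stood at ratios of 0.328 and 0.668. Btg2 was seen in both photoreceptors, at 193 and 244 CPM in rod-like and 253 and 377 CPM in cone-like cells.

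The heat shock members differ in what they encode. Hspa1a and Hspa1b encode the same inducible Hsp70 from near-identical copies on chromosome 17, so reads can be split between them and they are also given summed. Hsp90aa1 encodes the inducible Hsp90, Hspa8 the constitutive Hsc70, Hsph1 its exchange factor, and Dnajb1 and Dnaja1 the J-domain partners that hand clients to Hsp70. The summed Hspa1 pair stood at 217 CPM (202 to 234) in PBS and 193 CPM (179 to 208) in MSC-sEV rod-like cells. In microglia-like cells it was 40.8 CPM (26.9 to 59.3) and 22.1 CPM (17.4 to 27.7), and 7.61 CPM (4.16 to 12.8) in T cell or innate lymphoid-like cells. The inducible Hsp70 was thus highest in photoreceptors. The promoter windows of Hspa1a and Hspa1b carry the same heat shock element match at the same place, and between treatments their counts in rod-like cells had ratios of 0.739 (0.641 to 0.850) and 1.14 (0.967 to 1.35).

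All 12 rod markers were also detected in the microglia-, cone-, bipolar cell- and Müller glia-like cells of both libraries, so their share is given beside the heat shock level. In microglia-like cluster 6 the 12 rod markers stood at 5.11% (PBS) and 2.90% (MSC-sEV) of their level in rod-like cells of the same library. The Hspa1 pair stood at 18.3% and 8.38%, on 20 and 46 UMIs, and all heat shock members at 31.4% and 37.3%. In T cell or innate lymphoid-like cells the markers stood at 3.16% and the Hspa1 pair at 3.95%, and in Müller glia-like cells at 40.9% and 42.9% in PBS and 33.8% and 39.1% in MSC-sEV. Read the other way, microglia markers in MSC-sEV rod-like cells stood at 1.01% of cluster 6 and the immediate-early members at 7.68%. The part of rod or microglia RNA in these levels was not tested.

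Between the treatments 1 of 7 heat shock members was 2-fold apart in microglia-like and 1 of 7 in rod-like cells. In microglia-like cells none was at least 2-fold higher and Hspa1a was lower, beside 10.5% and 7.03% of all genes. It was 2.20-fold lower (1.25 to 3.74) on 21 and 49 UMIs, and the median log2 ratio was -0.04. Hsp90aa1 stood at 559 and 473 CPM and Hspa8 at 884 and 1055 CPM in microglia-like cells. In rod-like cells Hspa8 was the one past 2-fold, beside 5.22% of all genes lower, with 1151 CPM (1114 to 1189) in PBS and 551 CPM (527 to 576) in MSC-sEV (2.09-fold lower, 1.98 to 2.21), but without cluster 15 its ratio was 0.531 and none of the 7 was past 2-fold. Hspa8 was lower in the other retinal classes of the MSC-sEV library as well, with ratios of 0.585 (0.538 to 0.635) in cone-like, 0.633 (0.567 to 0.706) in bipolar cell-like and 0.621 (0.574 to 0.672) in Müller glia-like cells, while in microglia-like cells it was 1.19 (1.09 to 1.31). The difference between these classes was not tested.

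Hsp90aa1 took the other direction in rod-like cells, 2896 and 3423 CPM (1.18-fold higher, 1.15 to 1.21), and in Müller glia-like cells (1.35-fold higher, 1.26 to 1.44). Cluster 15, which had no MSC-sEV cell, held 17.5% of the Hsp90aa1 UMIs of PBS rod-like cells but 27.4% of all their UMIs. The PBS rod-like level is thus higher without it, and the ratio nearer to 1. Hsph1 was 1.73-fold higher (1.29 to 2.33) in cone-like and 1.70-fold higher (1.14 to 2.57) in Müller glia-like cells. Dnaja1 was highest in bipolar cell-like cells of both libraries, at 1122 CPM (1029 to 1222) and 605 CPM (540.0 to 675), against 195 and 144 CPM in rod-like cells. Dnajb1 ranged only from 21.2 CPM in migratory dendritic cell-like to 65.8 CPM in eosinophil-like cells of the MSC-sEV library.

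Chaperones of the endoplasmic reticulum, which answer to unfolded secretory protein and not chiefly to Hsf1, lay above 1 in MSC-sEV over PBS microglia-like cells, mostly by less than 2-fold. All 17 of 17 had a ratio above 1, beside 51.1% of all genes, and 2 were at least 2-fold higher, a share near the 10.5% of all genes, with a median log2 ratio of 0.60 beside 0.02 over all genes. Calr stood at 389.7 and 802 CPM (2.06-fold, 1.81 to 2.35), Hspa5, which encodes BiP, at 414 and 706 CPM (1.71-fold) and Hsp90b1 at 595 and 960.1 CPM (1.61-fold). In cluster 6 the count was 16 of 17 and the median 0.54. Of 30 further cytosolic and mitochondrial chaperone genes none was at least 2-fold higher and 2 were lower, near the 7.03% of all genes, with a median of -0.08. Ubb, a polyubiquitin gene, had the most UMIs of these and a ratio of 0.515 (0.484 to 0.549).

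A high mitochondrial share is a common sign of cell damage. Barcodes above the mitochondrial limit, left out of every class, had for AP-1 factors 600.2 against the 1613 CPM of kept barcodes in PBS and 921 against 3041 CPM in MSC-sEV, and for heat shock members 2473 against 4011 and 1932 against 2808 CPM. Those barcodes were also shallow, with medians of 721.5 and 896 UMIs, and their cell types are not known. Within named classes the members took no single direction. Between the cells with higher and lower mitochondrial shares in 14 pairs of class and library, AP-1 factors were higher with the higher share in 7 (intervals apart in 5) and lower in 7 (apart in 4), and heat shock members higher in 6 (apart in 3) and lower in 8 (apart in 4). AP-1 factors went from 629 to 815 CPM in PBS rod-like and from 1977 to 3238 CPM in MSC-sEV Müller glia-like cells, and heat shock members from 1277 to 2182 CPM in PBS microglia-like cells. Within PBS microglia-like cells AP-1 factors stood at 10303 CPM in the 55 cells with the lower and 5906 CPM in the 55 with the higher mitochondrial shares, and within the MSC-sEV library at 5854 and 5566 CPM. The PBS log2 ratio of higher over lower was -0.80 for the class, -0.27 in cluster 6 alone and 0.07 in cluster 5, and the part that the mix of clusters plays was not tested further.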

How the data were processed

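The authors deposited, with Cell Ranger 3.0.2 and build mm10 per the submitters' processing notes, 1 matrix of UMI counts per gene and barcode for each library. Totals were 8439740 and 16987131 UMIs over 1676 PBS and 2593 MSC-sEV barcodes. A barcode was kept if it reached 500 UMIs and 300 genes with no more than 15% mitochondrial UMIs (312 and 257 exceeded that limit). Cells were clustered with scanpy 1.11.5 (2000 variable genes without the members and related lists, 30 components, 20 neighbours, Leiden resolution 1, seed 1), and clusters were named from marker lists, so names and boundaries are rebuilt here. Doublets were not removed: Scrublet called 3 and 6 cells (0.223% and 0.258%), too few to rely on, and serves as an alternative only.

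Counts were summed per class and library. Levels have exact Poisson, shares Clopper-Pearson and ratios exact conditional binomial intervals at 95% (scipy 1.17.1, Python 3.11.15). A gene needed 20 UMIs over both libraries in a class for a ratio, and 3 UMIs stood in for a count of 0. The interval script was tested on simulated data. All 32 members may be named; of related lists, the 3 highest, the 3 lowest (by the interval bound nearest 1) and the 3 with the most UMIs. Members and lists were chosen with earlier results of these data known. Exons of 2 members overlap another gene on the same strand (Dnaja1 and Hspa8, over small RNAs) and those of 8 a gene on the other strand, and how the counting treated strand is not given in the sources used here. Gene positions are from GENCODE M21, which held 30934 of 31053 gene IDs.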

Additional observations from a re-analysis of the deposited data

Results flagged for a closer look

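Klf4, a Krüppel-like factor, was 5.96-fold higher (3.24 to 11.8) in MSC-sEV than in PBS in Müller glia-like cells but had a ratio of 0.441 (0.193 to 0.948) in rod-like cells. It was picked out because the intervals of the classes lie on opposite sides of 1, with 13 and 62 UMIs in Müller glia-like and 22 and 11 in rod-like cells. The difference between the classes was not tested. Of the PBS rod-like UMIs, 17 of 22 lay in cluster 15, which had no MSC-sEV cell, and without it the rod-like ratio was 1.41.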

How the results depend on the processing

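No paired analysis was possible because each group is 1 pooled library. Over the lists per class, the co-detection, the mitochondrial split and the contrast of classes, 226 values under alternatives stayed within the interval of the value reported (for a median, its interval over the members), 31 left it and 1 turned. Over single members 1125 stayed, 369 left it and 36 turned, 34 of these in rod-like, 2 in microglia-like and none in Müller glia-like cells. Not every change of sign was counted as turned. With few members per list, the interval of a median spans all or nearly all member values. A median could therefore seldom leave it or be counted as turned, so the count that stayed says little about the medians. In rod-like cells the median log2 ratio ran over the alternatives from -0.69 to 0.70 for AP-1 factors. It ran from -1.06 to 0.61 for other immediate-early genes and from -0.67 to 0.92 for feedback genes. These changes of sign are not in the count of turned values. The cause of the changes was not tested except where the alternative removes cells by its construction. Depth limits the rare members: Fosl2 and Nr4a1 had 2 PBS UMIs each in microglia-like cells, so their sizes are loosely bounded.

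In microglia-like cells the median log2 ratio of other immediate-early genes went from 0.17 to -0.39 at resolution 2.0, and that of feedback genes from 0.54 to 2.21 in cluster 5 alone, where Jun (0.042) and Ier5 (0.49) also turned. In rod-like cells the median of other immediate-early genes went from -0.75 to 0.43 with the stricter cell filter, 0.56 at resolution 2.0, 0.44 by marker score and 0.61 without cluster 15. Single rod-like log2 ratios that turned to higher in MSC-sEV were, with the stricter filter, Rhob 0.43, Dusp1 0.51, Dusp6 0.077 and Zfp36 1.32; at resolution 0.5, Rhob 0.28, Dusp1 0.52 and Zfp36 1.04; at resolution 2.0, Klf2 0.14, Rhob 0.63, Dusp1 0.74, Dusp6 0.88 and Zfp36 1.24; by marker score, Klf4 0.61, Rhob 1.15, Dusp1 0.87 and Zfp36 0.72. With cells weighted equally they were Klf2 0.024, Dusp1 0.10, Dusp6 0.17 and Zfp36 0.15, and after thinning Dusp1 0.20 and Zfp36 0.29. Alone, cluster 0 gave Klf2 0.18 and Zfp36 0.42, cluster 1 Dusp1 1.27 and Zfp36 1.14, and cluster 4 Rhob 0.61, Dusp1 0.19 and Zfp36 1.08. Without cluster 15, chosen after seeing the data, Klf2 was 0.22, Rhob 0.85, Dusp1 0.73, Dusp6 0.86 and Zfp36 1.26. Only members counted as turned are listed here. Junb, for one, changed direction without being counted. It had 152 CPM (PBS) and 107 CPM (MSC-sEV) over all rod-like cells, and a ratio of 2.02 without cluster 15.

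The log2 ratio of microglia-like over rod-like cells in MSC-sEV was 3.49 for immediate-early and -1.31 for heat shock members. It was 3.70 and -1.41 with the stricter filter, 3.37 and -1.18 with no mitochondrial limit, 3.41 and -1.16 at resolution 0.5, 3.41 and -1.15 at 2.0, 3.16 and -1.17 after thinning, 1.11 and -0.85 for cluster 5 and 3.70 and -1.42 for cluster 6, and -1.36 for heat shock members without the top doublet scores. The gap in Jun detection between microglia-like cells with and without Fos went from 49.2 points to 19.8 (-2.27 to 41.1) with the stricter filter and 19.4 (-2.31 to 40.3) in cluster 6, and both intervals hold 0. For AP-1 factors in PBS microglia-like cells, the log2 ratio of higher over lower mitochondrial share (-0.80) was -0.27 with the stricter filter, at both other resolutions and in cluster 6, -1.07 with no limit, -0.67 with the members in the clustering, -0.98 without the top doublet scores, -1.19 after thinning and 0.068 in cluster 5.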

Other observations

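Related genes in Müller glia-like cells gave a further view of the same programs. Of 24 further immediate-early genes with enough UMIs, 10 were at least 2-fold higher in MSC-sEV and 1 lower, beside 10.1% and 4.82% of all genes, with a median log2 ratio of 0.71 beside 0.14 over all genes. Cebpd, a C/EBP factor of the acute phase response, had the most UMIs of them, at 388 and 914 CPM (2.36-fold, 2.13 to 2.62), whereas in microglia-like cells its ratio was 0.475. Nfkbiz, an inducible nuclear NF-kB regulator, had 10 and 54 UMIs (6.75-fold, 3.40 to 14.9). Bag3, an Hsf1 target that pairs Hsp70 with autophagy, was the only further chaperone gene at least 2-fold higher, with 32 and 58 UMIs (2.26-fold).

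The polyubiquitin gene Ubb had ratios of 0.515 in microglia-like, 0.680 in Müller glia-like and 0.534 in rod-like cells. In rod-like cells 3 of 19 upstream regulators were at least 2-fold higher and 1 lower, near the 15.9% and 5.22% of all genes, with a median of 0.61 beside 0.28. Mapk8, which encodes the kinase JNK1, stood at 34.3 and 94.2 CPM there (2.75-fold, 2.21 to 3.44). Ratios above 1 were found for 15 of 19 upstream regulators over all rod-like cells. Within rod-like clusters 0, 1, 2 and 4, which the libraries filled unequally, they were found for 7 of 16, 4 of 9, 2 of 5 and 10 of 14. The endoplasmic reticulum chaperones had a median of -0.40 in rod-like and 0.18 in Müller glia-like cells, and the difference from microglia-like cells was not tested.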
